A study of Mus musculus with 2 samples.

Results

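The miR-143 and miR-145 pair and the miR-199 and miR-214 genes are a group of 6 mouse miRNA genes known from mesenchymal cells, and their levels were described in embryonic liver. The group was chosen by gene name: Mir143, Mir145a (also called Mir145), Mir199a-1, Mir199a-2, Mir199b and Mir214 were matched by Ensembl identifier to the count tables, and all 6 were found among 1973 listed miRNA genes. Short RNA was sequenced from livers of mouse embryos of strain B6NCrl at 12.5 days, healthy and with both sexes pooled. There were 2 biological replicates of 1 group, with no second age, genotype or treatment: replicate 1 pooled 120 embryos and replicate 2 pooled 88. Both pools carry 1 donor identifier in the labels, so the spread between them may in part be technical. A level is the number of sense-strand counts of a gene per 1000000 sense counts on all listed miRNA genes (CPM), and the values of replicate 1 and replicate 2 are given separately.

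The pair of Mir143 and Mir145a is processed from the long RNA Carmn and is known for keeping smooth muscle cells in their contractile state. The miR-199 genes lie antisense to the dynamin genes. Mir199a-2 and Mir214 are carried together by Dnm3os, an antisense transcript that acts in skeletal development in mice and is driven by the mesenchymal factor Twist1. In adult liver, miR-199a and miR-214 are known from stellate cells, the fat-storing pericytes that deposit collagen when activated. Because whole liver was sequenced, fewer cells of a type and less RNA per cell cannot be told apart. Only miRNAs were counted, so the mesenchymal origin of the 6 genes could not be checked against protein-coding markers of those cells.

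The mature miRNAs of the miR-199 genes are shown first because identical products come from different loci, and reads that align to several places stand in a line of their own in the deposited tables and in no gene. Sequences are those of RefSeq on GRCm38.p6, written 5′ to 3′, and the capitals mark the seed, bases 2 to 8, which pairs with target RNAs. The table matched 4 of the 6 genes.
miR-199a-5p: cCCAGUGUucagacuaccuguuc
miR-199a-3p: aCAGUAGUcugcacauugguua
miR-199b-3p: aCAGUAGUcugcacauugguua
miR-214-5p: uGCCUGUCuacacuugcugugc
miR-214-3p: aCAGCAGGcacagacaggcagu
miR-199a-3p and miR-199b-3p were the same molecule, present in 3 hairpins (Mir199a-1, Mir199a-2 and Mir199b). miR-199a-5p was present in 2 hairpins, Mir199a-1 and Mir199a-2. Both arms of Mir214 were found in 1 hairpin. By seed, the miR-199a-3p and miR-199b-3p products formed 1 family and miR-199a-5p another. The seed of miR-214-3p was shared with miR-761, whose gene Mir761 had 2 counts in replicate 1 and 1 in replicate 2.

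Among the miR-199 genes, the hairpins from which these arms are cut differ mostly outside the arms. The hairpin of Mir214 differs from them within the arms as well. In the following sequences the capitals mark the mature arms that RefSeq lists.
Mir199a-1: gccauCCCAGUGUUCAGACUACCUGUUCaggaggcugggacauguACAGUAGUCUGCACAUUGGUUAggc
Mir199a-2: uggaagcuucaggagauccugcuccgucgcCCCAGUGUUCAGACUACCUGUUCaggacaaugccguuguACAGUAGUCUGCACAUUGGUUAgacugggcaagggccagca
Mir199b: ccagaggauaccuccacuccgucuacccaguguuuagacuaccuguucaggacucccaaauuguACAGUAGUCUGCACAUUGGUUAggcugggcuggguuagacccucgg
Mir214: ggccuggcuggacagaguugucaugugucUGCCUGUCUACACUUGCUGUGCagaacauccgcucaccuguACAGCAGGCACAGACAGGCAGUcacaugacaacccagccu
Mir199a-1 lies at chr9:21496495-21496564 on the minus strand, Mir199a-2 at chr1:162217814-162217923 on the plus strand, Mir214 at chr1:162223368-162223477 on the plus strand and Mir199b at chr2:32318460-32318569 on the plus strand. The longest run of identical bases was 28 between Mir199a-1 and Mir199b, 27 between Mir199a-1 and Mir199a-2 and 27 between Mir199a-2 and Mir199b, against 7 between Mir214 and each of these genes. The stretch of the Mir199b hairpin closest to miR-199a-5p differed from it by 1 base, C10U, counted from 1 at the 5′ end of the miRNA. Mir199b therefore has a 5p stretch that the other genes lack, while Mir199a-1 and Mir199a-2 have no listed arm of their own.

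In GENCODE M21, which is on the assembly of the files, Mir199a-2 (ENSMUSG00000070126.1) and Mir214 (ENSMUSG00000065516.1) overlap exons of Dnm3os and lie opposite an intron of Dnm3. Mir199a-1 (ENSMUSG00000065547.1) lies opposite an intron of Dnm2, and Mir199b (ENSMUSG00000092807.1) opposite an intron of Dnm1. Mir143 (ENSMUSG00000065445.2) spans 61649196 to 61649258 on the minus strand of chromosome 18, and Mir145a (ENSMUSG00000065592.1) spans 61647825 to 61647894. Both lie downstream of the annotated end of Carmn, with 366 bases between Carmn and Mir143. The tables count earlier versions of these 2 identifiers than M21 holds. Mir143 and Mir145a are 1301 bases apart, and Mir199a-2 and Mir214 are 5444 bases apart.

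**Figure D1:**
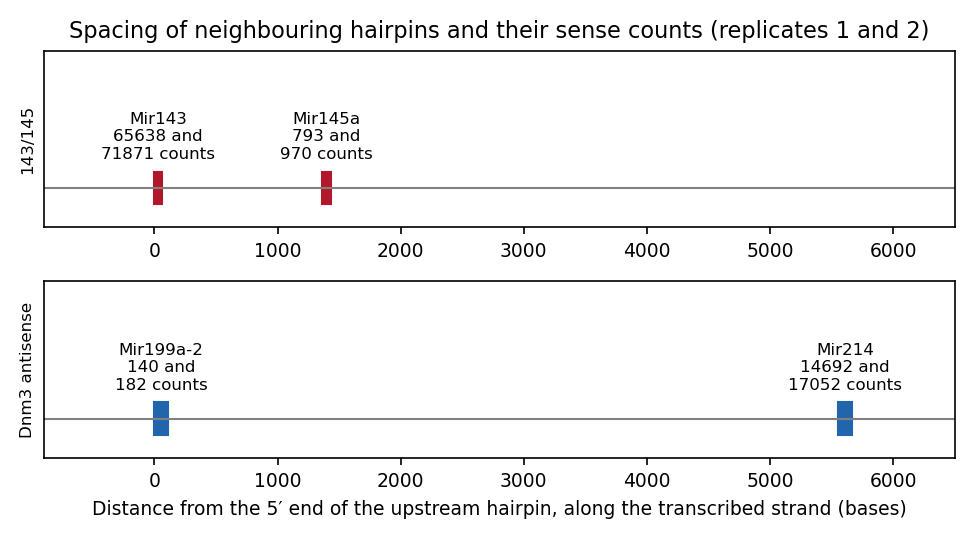
Positions of the hairpins (coloured boxes) at the Mir143-Mir145a locus and at the Dnm3 antisense locus, with distance in bases from the 5′ end of the upstream hairpin along the transcribed strand on the x axis and sense counts of replicates 1 and 2 above each box. In the Mir143-Mir145a pair the upstream hairpin held most counts, with 65638 and 71871 on Mir143, and in the Dnm3 antisense pair the downstream one did, with 14692 and 17052 on Mir214.

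The libraries held 11057424 reads in replicate 1 and 11013976 in replicate 2, with 3447858 and 3534816 sense counts on miRNA genes. Reads aligned to several places came to 3180324 in replicate 1 and 3427344 in replicate 2, or 0.922 and 0.970 times the sense counts. The limit for a gene with no count was set at 3 counts, or 0.870 CPM in replicate 1 and 0.849 CPM in replicate 2. The counts carry no molecular identifiers, so intervals and limits cover counting error only.

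Mir143 was by far the most abundant of the 6 genes and Mir214 the next, and 5 of the 6 were detected, taken as at least 10 CPM in both libraries. Over all listed genes 301, or 15.3%, were detected by the same threshold. The group held 2.48% ± 0.141 of all miRNA sense counts (SD, n = 2). Mir143 alone held 79.9% of the group's counts in replicate 1 and 78.7% in replicate 2, and Mir143 with Mir214 held 97.8% and 97.4%.

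Mir143, whose product represses regulators of smooth muscle growth, had 65638 counts in replicate 1 and 71871 in replicate 2. These are 19037 CPM (exact Poisson 95% interval 18892 to 19184) in replicate 1 and 20332 CPM (20184 to 20482) in replicate 2. It ranked 16 and 14 of all listed genes in replicates 1 and 2, and its replicates differed least of the group relative to their mean, with a coefficient of variation of 4.65%.

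Mir145a, whose product represses the pluripotency and smooth muscle regulator Klf4, had 793 counts in replicate 1 and 970 in replicate 2. Its level was 230 CPM (interval 214.3 to 247) in replicate 1 and 274 CPM (257 to 292) in replicate 2, at rank 172 and 157. Although it lies beside Mir143 and is processed from the same primary transcript, it stood far below it in both libraries. Mir145b, a gene of similar name elsewhere on the same chromosome, had 0 counts in each replicate, so a level of up to 0.870 CPM in replicate 1 and 0.849 CPM in replicate 2 remains possible.

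Mir214, whose product is known to repress the chromatin regulator Ezh2 in mouse muscle, had 14692 counts in replicate 1 and 17052 in replicate 2. The levels were 4261 CPM (interval 4193 to 4331) in replicate 1 and 4824 CPM (4752 to 4897) in replicate 2, at rank 51 and 48. Mir214 is the only one of the 4 antisense genes with both mature arms in a single hairpin, and it was the highest of them in both libraries.

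Mir199b, antisense to Dnm1, had 858 counts in replicate 1 and 1189 in replicate 2. Its level was 249 CPM (interval 232 to 266) in replicate 1 and 336 CPM (318 to 356) in replicate 2. Gm23363, the other listed miRNA gene at this place, 116 bases upstream, had 5 counts in replicate 1 and 3 in replicate 2.

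Mir199a-2, the neighbour of Mir214 on Dnm3os, had 140 counts in replicate 1 and 182 in replicate 2. Its level was 40.6 CPM (interval 34.2 to 47.9) in replicate 1 and 51.5 CPM (44.3 to 59.5) in replicate 2. Mir199a-1, antisense to Dnm2, had 23 counts in replicate 1 and 11 in replicate 2, or 6.67 CPM (4.23 to 10.01) and 3.11 CPM (1.55 to 5.57). It lay below 10 CPM in both libraries and was the one gene of the group with the higher CPM in replicate 1.

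**Figure D2:**
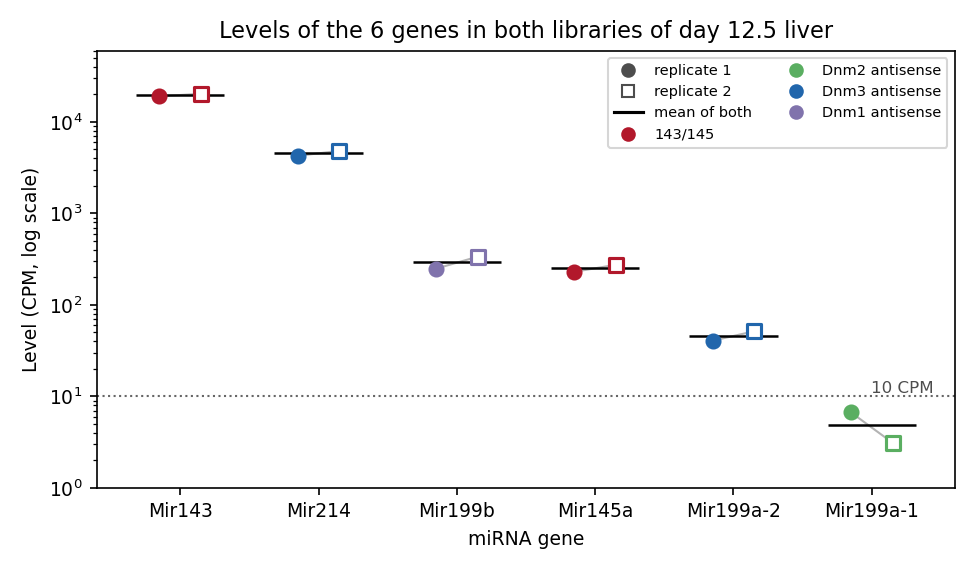
Level of each gene in CPM on a log axis, with replicate 1 as filled circles, replicate 2 as open squares, the mean as a black bar and colours for the locus. From Mir143 at 19037 and 20332 CPM to Mir199a-1 at 6.67 and 3.11 CPM, the ranges over both libraries of neighbouring genes in the order do not overlap, except those of Mir199b and Mir145a.

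The order of means was Mir143 at 19685 ± 916 CPM, Mir214 at 4543 ± 398, Mir199b at 293 ± 61.9, Mir145a at 252 ± 31.4, Mir199a-2 at 46.0 ± 7.70 and Mir199a-1 at 4.89 ± 2.52 (SD, n = 2 each). The means of Mir199b and Mir145a differed by 40.4 CPM, less than the SD of Mir199b, and their ranges over the libraries overlapped, although Mir199b was the higher of the pair within each library. Every other neighbouring pair in this order had ranges that did not overlap, and the narrowest of these gaps in fold was the 4.33 between the means of Mir143 and Mir214. CPM is not divided by length, and the capture efficiency of each miRNA is unknown, so a ratio between genes need not be a ratio of molecules.

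The summed counts of the Mir143-Mir145a locus exceeded those of the Dnm2 and Dnm3 antisense loci in both libraries. These are counts of uniquely aligned reads. Both listed arms of Mir199a-1 and Mir199a-2 lie in several hairpins, so the antisense sum sets no upper limit on the miR-199a products. The Mir143-Mir145a locus stood at 19267 CPM in replicate 1 and 20607 CPM in replicate 2. The Dnm2 and Dnm3 antisense loci together stood at 4308 and 4879 CPM, of which the Dnm2 locus gave 6.67 and 3.11 CPM. The Mir143-Mir145a sum was 4.47 times the antisense sum in replicate 1 (exact binomial 95% interval 4.39 to 4.55) and 4.22 times in replicate 2 (4.15 to 4.29). The log2 ratio of the sums averaged 2.12 ± 0.0582 (SD, n = 2). The ratios were taken within each library and are given as values with no p, since an exact permutation test of 2 against 2 values cannot go below a two-sided p of 0.333.

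This comparison rests on 1 gene per locus. Mir143 over Mir214 alone gave 4.47 in replicate 1 and 4.21 in replicate 2. Mir145a, the weaker gene of its locus, also exceeded Mir199a-2, with a mean 5.48 times as high, and Mir199a-1, but not Mir214. Mir145a had 0.924 times the counts of Mir199b, antisense to Dnm1, in replicate 1 and 0.816 times in replicate 2. In replicates 1 and 2 Mir214 had 18.5 and 17.6 times the counts of Mir145a.

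Within each shared transcript the neighbours differed widely. Mir143 exceeded Mir145a 82.8-fold in replicate 1 and 74.1-fold in replicate 2, a mean of 78.4 ± 6.14 (SD, n = 2). Mir214 exceeded Mir199a-2 105-fold in replicate 1 and 93.7-fold in replicate 2, a mean of 99.3 ± 7.96. Reads of the miR-199a arms that align to several hairpins are not in the count of Mir199a-2, so this ratio holds for uniquely aligned reads only. Among the 3 genes of the miR-199 family, Mir199b had 6.13 and 6.53 times the counts of Mir199a-2, and Mir199a-2 had 6.09 and 16.5 times those of Mir199a-1. The last ratio is imprecise because it rests on 23 and 11 counts.

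Such ratios were set beside all same-strand neighbours within 10 kb among the genes with at least 10 counts over both libraries. There were 127 such pairs, with a median ratio of the higher to the lower gene of 8.88 and quartiles of 3.005 and 41.5. Mir214 and Mir199a-2 ranked 18 and Mir143 and Mir145a ranked 22 of the 127 by width, here with 0.5 counts added, so both lay above the upper quartile. The ratio of the 2 libraries differed between the neighbours by 0.16 on the log2 scale in both pairs. The median of this difference was 0.23 over all 127 pairs and 0.19 over the 95 pairs with at least 100 counts on each gene. Whether sequence shared between hairpins lowers the count of the lower gene of a pair was not tested.

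**Figure D3:**
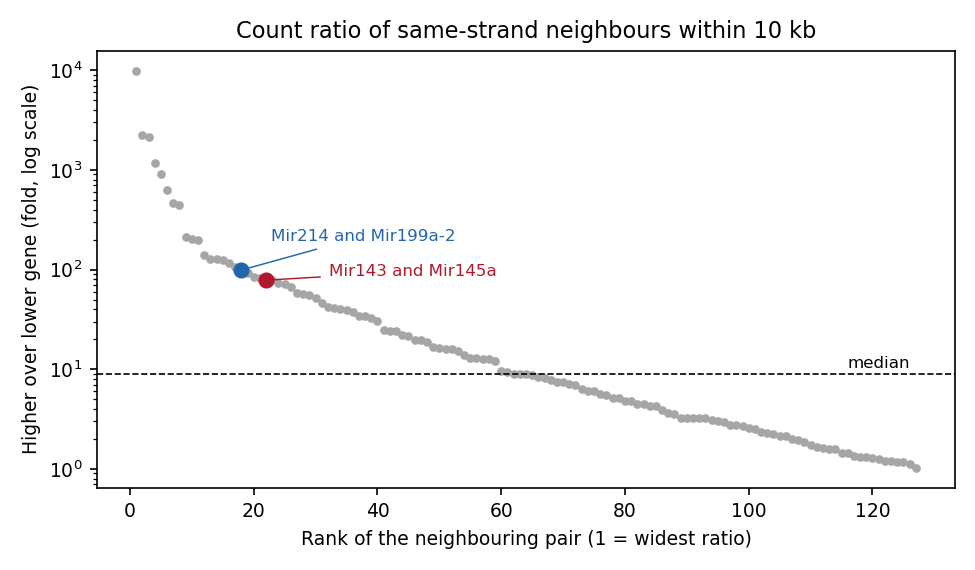
Ratio of the higher to the lower gene (fold, log axis) for 127 same-strand neighbouring pairs within 10 kb, ordered by width, with each grey point 1 pair and the dashed line the median of 8.88. The pair of Mir214 and Mir199a-2 (blue) at rank 18 and that of Mir143 and Mir145a (red) at rank 22 lie above the median.

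How much of a hairpin is shared with other miRNA genes differed between the loci. Of the windows of 22 bases in the M21 hairpins, 13 of 49 of Mir199a-1, or 26.5%, also occurred in another miRNA gene. The same held for 12 of 89 windows of Mir199a-2 (13.5%) and 8 of 89 of Mir199b (8.99%), and the genes shared with were in each case the other miR-199 genes. Mir143, Mir145a and Mir214 had 0 shared windows of 42, 49 and 89. Within the miR-199 family the order of the shared percentages was the reverse of the order of the counts, which describes 3 genes and was not tested as a cause. Mir199a-1 and Mir199a-2 had nearly the same number of shared windows, 13 and 12. Their percentages differed mostly through the number of windows, 49 and 89, which follows the annotated hairpin lengths of 70 and 110 bases.

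Over all listed genes with a mature sequence in RefSeq, 35 had every listed mature sequence in several hairpins, and Mir199a-1, Mir199a-2 and Mir199b were among these. Of the 35, 4 were detected (11.4%), and the 10 with at least 10 counts had a median of 9.54 CPM. Of 832 genes with every mature sequence in 1 hairpin, Mir214 among them, 244 were detected (29.3%), and the 355 with at least 10 counts had a median of 101 CPM. Of 49 genes with only some mature sequences in several hairpins 28 were detected (57.1%), and the 40 with at least 10 counts had a median of 33.1 CPM. Mir199a-2 and Mir199b are among the 4 detected genes of the first class, and all 3 miR-199 genes are among its 10. Whether sharing bears on detection was not tested. The summed counts of the 3 miR-199 genes were 296 CPM in replicate 1 and 391 CPM in replicate 2. They are counts of uniquely aligned reads and set no upper limit on miR-199a-5p, miR-199a-3p or miR-199b-3p, which several hairpins share. Reads of the 5p stretch of Mir199b were not counted apart. Mir143 and Mir145a were not part of this count.

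Counts of the 6 genes on the other strand were at or near 0. The files do not name their strand columns, and the column taken as sense is the one with most miRNA gene counts, so its lead is no finding. The opposite strand had 0 counts for every gene of the group in both libraries, except 1 count for Mir214 in replicate 2. Over all listed genes it held 374792 counts in replicate 1 and 363712 in replicate 2, beside 3447858 and 3534816 sense counts. The sense share of Mir214 was 100% in replicate 1 (exact Clopper-Pearson 95% interval 99.9749% to 100%) and 99.9941% in replicate 2 (99.9673% to 99.9999%). The opposite-strand count, which would take in short fragments of the dynamin transcripts at these places, was thus at or below the limit of 3 counts.

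The libraries differed for 5 of the 6 genes in a two-sided exact binomial test. Library sizes were scaled by TMM, which trims extreme genes, and p-values were adjusted by Benjamini-Hochberg over all 464 genes with at least 10 counts. All 5 were lower in replicate 1. Against a background of 40.3% of tested genes called, 22.0% of them lower and 18.3% higher in replicate 1, the test calls any difference beyond counting error, so it compares 2 libraries and not conditions. Among the 89 genes with at least 10000 counts, 85.4% were called, and among the 105 with 1000 to fewer than 10000, 71.4%. Most genes as deep as Mir143 and Mir214, or as Mir145a and Mir199b, were thus called. Of the 95 genes with 100 to fewer than 1000 counts, which include Mir199a-2, 29.5% were called.

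Mir143 had a log2 ratio of replicate 1 over replicate 2 of -0.15 (95% interval -0.16 to -0.13), with an adjusted p of 6.68e-81 by the exact binomial test. Mir214 had a log2 ratio of -0.23 (-0.27 to -0.20; adjusted p = 5.93e-46, exact binomial). Mir145a had -0.31 (-0.45 to -0.17; adjusted p = 2.87e-05, exact binomial). Mir199b had the widest called difference of the group, -0.49 (-0.62 to -0.36; adjusted p = 1.53e-13, exact binomial), or 1.40-fold. Mir199a-2 had -0.40 (-0.73 to -0.07; adjusted p = 0.0366, exact binomial), and with library sizes scaled to total sense counts it was not called (adjusted p = 0.0910).

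Mir199a-1 had a log2 ratio of 1.01 (-0.05 to 2.23; adjusted p = 0.127, exact binomial) and was not called. The median over the 6 genes was -0.27, beside -0.02 over all 464 genes tested. In absolute size the ratios of Mir143 and Mir214 were below the median of 0.26 over all tested genes, and those of the other 4 were above it.

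**Figure D4:**
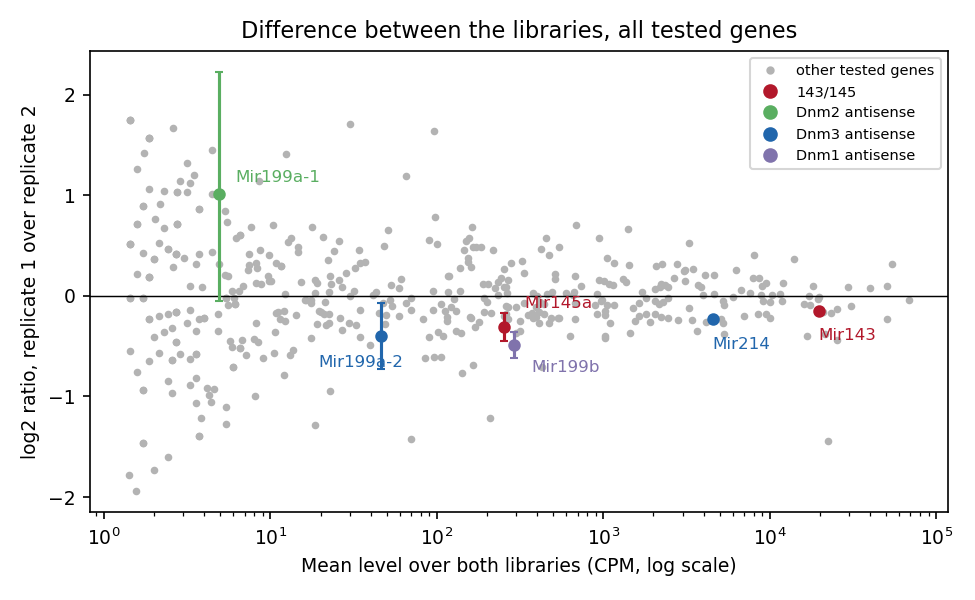
Log2 ratio of replicate 1 over replicate 2 on TMM-scaled library sizes against mean level in CPM (log axis) for the 464 tested genes (grey), with the 6 genes in colour by locus and bars for exact 95% intervals. Of the 6 genes, 5 lie between -0.49 and -0.15, inside the cloud of other genes at their level, and Mir199a-1 lies at 1.01 with an interval that includes 0.

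With an allowance for spread beyond counting, none of the 6 differences passed. In edgeR's negative binomial exact test with an assumed biological coefficient of variation of 0.1, 0 of the 6 genes passed, with adjusted p from 0.351 for Mir199b to 0.862 for Mir143 and an unadjusted p under 0.05 for 1 gene, Mir199b. In all, 2.59% of the 464 genes passed this test. The coefficient estimated from the 2 libraries was 0.162, and with it 0 of the 6 genes passed and 1.08% of all tested genes did. This estimate took the 2 libraries as 1 group, so the difference under test was itself counted as spread. The number of binomial calls in each direction depended on the scaling. With TMM 102 of the called genes were lower and 85 higher in replicate 1. With total sense counts 77 were lower and 101 higher, and 4 of the 6 genes were called, all lower.

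Other miRNAs known from mesenchyme, smooth muscle and stellate cells were called about as often as the background. Of 16 such genes, all tested, 5 were lower and 1 higher in replicate 1, and 10 were not called, beside 40.3% called over all tested genes, with a median log2 ratio of -0.08 beside -0.02 over all tested genes. Mir21a, known for its rise in fibrosis, was the highest at 25499 ± 893 CPM (SD, n = 2), with a log2 ratio of -0.13. Mir99a and Mir100 had -0.44 and -0.38, and Mir22 had 0.18. Mir29a, whose product represses collagens, had -0.10. The widest ratios in absolute size, 1.12 for Mir29b-2 and 0.69 for Mir29b-1, rested on 16 and 33 counts in replicate 1 against 7 and 20 in replicate 2 and were not called. Summed, the list stood at 67382 CPM in replicate 1 and 74894 CPM in replicate 2, so that the Mir143-Mir145a locus was 0.286 and 0.275 times the list.

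Markers of other cell types are given by the same exact binomial calls, beside 22.0% of all tested genes called lower and 18.3% higher in replicate 1. The erythroid list (3 of 3 genes measured) summed to 16926 CPM in replicate 1 and 37430 CPM in replicate 2, with 2 genes lower and 1 higher in replicate 1. It was led by Mir451a with a log2 ratio of -1.44, in the direction of the 5 called genes of the group. Mir451a also passed edgeR's negative binomial test with the estimated coefficient. The epithelial list (5 of 5) summed to 3409 and 2116 CPM, led by Mir429, and all 5 were called higher in replicate 1, of which 1 passed the negative binomial test with an assumed coefficient of 0.1. Mir122 of hepatocytes stood at 60913 and 47128 CPM, with a log2 ratio of 0.32, and the endothelial Mir126a, with 1 of 2 genes of its list measured, at 68816 and 68165 CPM, with a log2 ratio of -0.04. The myeloid and leukocyte list (3 of 3), led by Mir223, summed to 7188 and 5831 CPM, with 1 gene higher and 0 lower in replicate 1.

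The heart and skeletal muscle list (8 of 9 genes measured) summed to 441 CPM in replicate 1 and 695 CPM in replicate 2, led by Mir499 at 250 and 282 CPM, and 3 of its 5 tested genes were lower and 0 higher in replicate 1. Mir206 and Mir208b, of skeletal muscle and heart, had log2 ratios of -1.22 and -1.42, also in the direction of the 5 called genes of the group. Like Mir451a, both passed edgeR's negative binomial test with the estimated coefficient. Of the other tested genes of this list, Mir133b had a log2 ratio of -1.22 on 8 and 19 counts and was not called. Mir499 had -0.23, and Mir208a, in the other direction, had 0.13 and was not called. Mir1a-1, Mir133a-1 and Mir133a-2 were at 0 in both libraries, with limits of 0.870 CPM in replicate 1 and 0.849 CPM in replicate 2. Reads aligned to several places are in no gene, so these counts set no limit on products that several genes share. The part of any of these cell types in the differences of the 6 genes was not tested. The Mir143-Mir145a locus was 0.280 and 0.302 times Mir126a, and 0.316 and 0.437 times Mir122, in replicates 1 and 2.

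**Figure D5:**
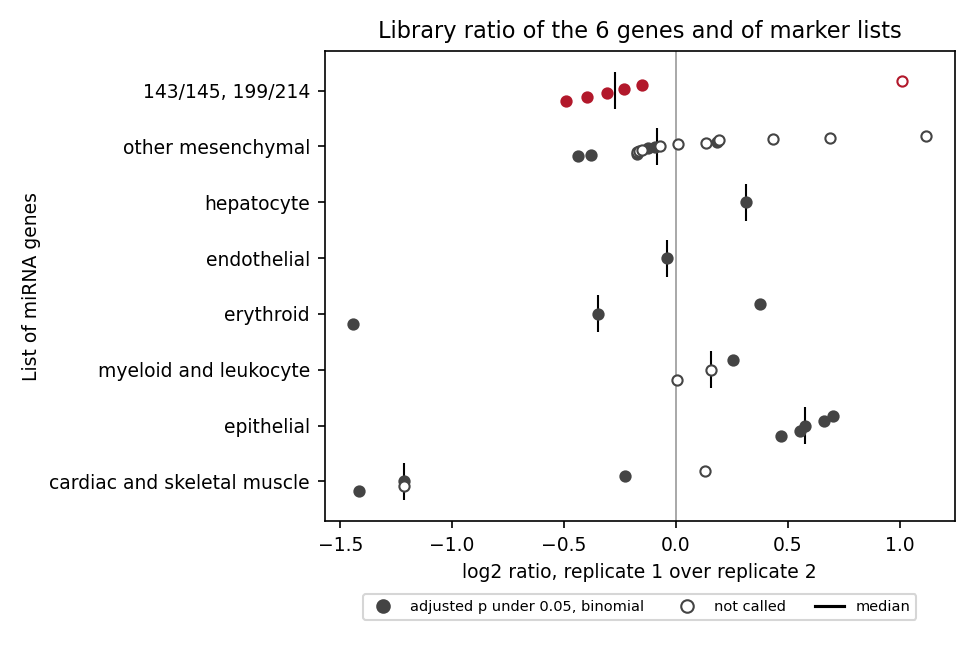
Log2 ratio of replicate 1 over replicate 2 for the 6 genes (red, top row) and for 7 marker lists, with each point a tested gene, filled where the exact binomial test gave an adjusted p under 0.05, and a black bar at each list's median. The group's median of -0.27 lies left of 0 and the epithelial list, with all 5 genes called higher, right of it.

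Genes whose levels were closest to those of each gene were found by the Euclidean distance of log2(CPM + 1) over the 2 libraries, which with so few points measures little more than the level. For Mir143 these were Mir30e at 19538 and 19249 CPM and Mir431 at 20095 and 19550 CPM in replicates 1 and 2. For Mir214 they were Mir101b (3871 and 4453 CPM) and Mir351 (4735 and 4496 CPM). For Mir199b they were Mir181b-2 and Mir708, for Mir145a Mir3074-1 and Mir7-1, and for Mir199a-2 Mir701 and Mir190a. For Mir199a-1 they were Gm24245, with the same 23 and 11 counts, and Mir3474, with 21 and 10.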

How the data were processed

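For each library the authors deposited raw read counts of every listed miRNA gene, on both strands, on the sense strand and on the opposite strand, with 4 further lines for reads of no gene. Per the file lists deposited with them, the assembly was mm10 and the annotation GENCODE M4. No source used here names the aligner or the counter. Of the reads in replicates 1 and 2, 29.4% and 25.8% were unmapped, 28.8% and 31.1% were multimapping and 10.6% and 11.0% fell on no listed gene. These lines were left out of library sizes. Names came from GENCODE M21, which held 1894 of the 1973 identifiers.

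Sense counts were scaled to CPM. The exact binomial test (scipy 1.17.1) ran on all genes with at least 10 counts, with TMM factors from edgeR 4.0.16, and ratios had 0.5 counts added. It was tested on simulated counts with counting error only, which leaves out any further spread between libraries. With 1 library a side, edgeR's quasi-likelihood test and DESeq2's test have no residual degrees of freedom. DESeq2 1.42.0 gave size factors only. The genes, the 7 marker lists and the tests were chosen with earlier results of these data known. Of 39 marker genes 37 were analysed. Genes were named by a rule: the 6 genes, listed neighbours within 10 kb, Mir145b, the 2 nearest by level, and the highest of each list with the widest ratios of the mesenchymal list. Mir761, Mir22, Mir29a, Mir99a, Mir100, Mir206, Mir208b, Mir1a-1, Mir133a-1 and Mir133a-2 were added after values were seen, as were the pairs of neighbours. Mir133b and Mir208a were likewise named outside this rule. Alternatives covered strand, scaling, thresholds, filters and each replicate left out.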

Additional observations from a re-analysis of the deposited data

How the results depend on the processing

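Per 1000000 reads of the whole library in place of miRNA sense counts, the mean levels were 6231 for Mir143, 1438 for Mir214, 92.8 for Mir199b, 79.9 for Mir145a, 14.6 for Mir199a-2 and 1.54 for Mir199a-1. With counts of both strands Mir143 stood at 17803 CPM, Mir214 at 4109 CPM, the Mir143-Mir145a locus at 18031 CPM and the Dnm2 and Dnm3 antisense loci at 4155 CPM, since the denominator grew. With Mir199b added to the antisense loci the log2 ratio of the Mir143-Mir145a locus over them was 2.03. At a threshold of 1 CPM 464 genes and all 6 of the group were detected. The binomial calls did not hold in the negative binomial test: 12 genes passed with an assumed coefficient of 0.1 and 5 with the estimated one, and 0 of the group in each. Mir199a-2 was also not called with total sense counts (adjusted p = 0.0910), DESeq2 size factors (0.0575) or all genes with at least 1 count (0.0592, exact binomial). The estimated coefficient counted the difference between the libraries as spread, as stated above. No ratio of the 6 genes reversed under any alternative run. Leaving out either of 2 replicates cannot move a mean by more than its SD. Mir199a-1 was at 3.11 CPM without replicate 1 and 6.67 CPM without replicate 2, against 4.89 CPM with both. No paired analysis was possible because no second group exists to pair with. The ratios between genes and loci were already taken within each library. Depth limits Mir199a-1, with 23 and 11 counts, most.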
